A study of Mus musculus with 6 samples.

Results

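The genes of the ISG15 conjugation pathway were examined by RNA-seq in mouse embryonic stem (ES) cells that lack Morc3, a MORC family ATPase that the study examined in the silencing of endogenous retroviruses. The 7 genes are Ube2l6, its close relative Ube2l3, and Uba7, Isg15, Herc6, Trim25 and Usp18. They were found by symbol among 24054 gene rows, and all 7 had a row. Ube2l6 was chosen by its higher counts in Morc3 ko cells, and the others were chosen by their place in the pathway with the results known. The ko and wild-type values of the 7 genes are therefore given as a description, with no test.

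The 6 libraries were made from feeder-free ES cells grown in medium with serum and LIF. 3 libraries came from the Morc3 ko lines KO27-1, KO27-2 and KO27-3, called ko 1, ko 2 and ko 3. 3 came from wild-type WT26 ES cells, named p42, p43 and p56 in the labels, which do not say what p stands for. By the study's methods, each ko line was a single clone derived from WT26 cells by Cas9 cutting. The wild-type libraries are cultures of 1 line. No interferon or other treatment is named in the labels. Sense-strand counts ranged from 10740618 to 14123131 per library. Counts are also given as CPM, that is, scaled for library size and composition. Morc3 RNA was at 77.7 to 138 CPM in the ko libraries and at 272 to 302 CPM in the wild-type libraries, so it was lower in ko and not absent. For the protein, the study reports loss of Morc3 in its ko clones by western blot.

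The markers of pluripotent cells, among them Pou5f1 and Nanog, were summed to 6517 to 6598 CPM in ko and to 6074 to 6118 CPM in wild type. This sum was higher in every ko library. All 9 of them were expressed and 0 were called as changed by edgeR's quasi-likelihood test (2 at an unadjusted p under 0.05, 1 called by DESeq2). Dppa5a and Zfp42, named after their values were seen, were higher in ko with groups that did not overlap. By edgeR their log2 fold changes were 0.43 (SE 0.09, adjusted p = 0.0231) and 0.15 (SE 0.05, adjusted p = 0.207). The 8 fibroblast markers came to 7.58 to 8.40 CPM in ko and 12.4 to 13.6 CPM in wild type, with Fap and Postn at 0. Of the 2 of these tested, 1 was called, Thy1, a surface protein also found on other cells, which was named after its values were seen. It fell by 0.86 on the log2 scale (SE 0.14, adjusted p = 0.0064), with 4.79 ± 0.255 CPM in ko and 8.70 ± 0.474 CPM in wild type. The 8 immune cell markers came to 30.6 to 32.4 CPM in ko and 34.1 to 36.8 CPM in wild type, with Csf1r and Tyrobp at 0, and 0 of the 2 tested were called by edgeR (1 at an unadjusted p under 0.05, 0 by DESeq2). The fibroblast and immune sums were both lower in ko, and the part of other cells in the results was not tested. In bulk RNA, fewer cells that express a gene and less RNA per cell cannot be told apart.

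ISG15 is a ubiquitin-like protein whose gene is induced by type I interferon, and it is joined to other proteins by a cascade like that of ubiquitin. Uba7, the E1 enzyme, activates ISG15 and hands it to the E2 enzyme Ube2l6. Ligases then pass it to the target, of which Herc6 is the main one in the mouse, and Trim25 can act as another. Usp18 is the protease that takes ISG15 off again, and it also dampens the signal of the interferon receptor. Ube2l3 is the closest relative of Ube2l6 and serves ubiquitin ligases of the HECT and RBR classes.

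Interferon acts on many of these genes through the interferon-stimulated response element, so the sequence before the start of the pathway genes is shown for the modifier and for the E2 enzyme. The first sequence lies before Isg15 (RefSeq, GRCm38.p6, minus strand of chr4:156200819-156201068) and the second before Ube2l6 (plus strand of chr2:84798578-84798827). Capitals mark each match to the core of the element, GAAANNGAAA, searched on both strands.
Isg15 promoter: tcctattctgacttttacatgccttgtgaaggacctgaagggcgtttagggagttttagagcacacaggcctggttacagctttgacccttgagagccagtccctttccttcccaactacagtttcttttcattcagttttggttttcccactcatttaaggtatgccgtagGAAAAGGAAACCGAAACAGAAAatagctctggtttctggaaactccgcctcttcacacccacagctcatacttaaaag
Ube2l6 promoter: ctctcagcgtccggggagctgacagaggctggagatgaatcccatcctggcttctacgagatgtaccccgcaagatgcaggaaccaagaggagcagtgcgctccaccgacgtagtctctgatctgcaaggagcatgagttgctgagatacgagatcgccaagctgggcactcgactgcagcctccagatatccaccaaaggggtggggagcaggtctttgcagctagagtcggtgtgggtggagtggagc
The Isg15 window held 3 overlapping matches, between 78 and 57 bases before the start. The Ube2l6 window held none. RefSeq windows were given for 6 of the 7 genes, and Isg15 was the only 1 of the 6 with a match. Over all 32851 promoter windows of 250 bases, 2.98% held a match, and 5 of 13 windows of interferon-stimulated genes did. The gamma-activated sequence, TTCNNNGAA, was in 0 of the 6 windows and in 7.02% of all windows. The window of Ube2l6 was 58.4% GC with 11 CpG dinucleotides, and that of Isg15 was 44.8% GC with 4. The medians over all windows were 52.4% and 6. A match is a run of letters and does not show that a factor binds there. Only exact matches within the 250 bases were sought, so a window without a match does not show that the element is missing.

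Of the 7 genes, 3 passed the filter on low counts, and the other four are described by their counts. Ube2l6 passed through its ko libraries. Among the 12222 genes tested, 1.28% were called at an adjusted p under 0.01, 0.859% as higher in ko and 0.417% as lower. The pathway genes had 1 called gene, Ube2l6, which was higher. The libraries of the groups did not overlap for 19.9% of all tested genes and for 1 of the 3 tested pathway genes, again Ube2l6. Nothing is read from these counts, since Ube2l6 was chosen on this contrast.

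Isg15, the modifier itself, had 0 counts in all 6 libraries, on the sense strand and on the opposite strand. The gene lies on chromosome 4 from 156199424 to 156200818 on the minus strand and has 0.756 kb of exon. With 3 counts as the limit that a count of 0 allows, its level was under 0.0904 CPM over the ko libraries together and under 0.0730 CPM over the wild-type libraries together. Transcripts of Isg15 were thus not detectable at this depth in either group. Read pairs that map to several places are not in these counts.

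Uba7, the E1 enzyme that activates ISG15, was close to the same limit. It lies on chromosome 9 from 107975567 to 107984056 on the plus strand. It had 0, 0 and 2 counts in ko 1, ko 2 and ko 3, and 3, 2 and 1 counts in p42, p43 and p56. The groups overlapped. The ratio of ko to wild type over the pooled counts was 0.412, with a 95% counting interval from 0.0407 to 2.31, so a difference was not detectable at this depth.

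Ube2l6, the E2 enzyme of the pathway, was the gene with the large difference. It lies on chromosome 2 from 84798828 to 84810003 on the plus strand. It had 119, 148 and 125 counts in ko 1, ko 2 and ko 3, and 10, 7 and 11 counts in p42, p43 and p56. Every ko library was far above every wild-type library. Its level was 11.0, 13.1 and 11.3 CPM in the ko libraries and 0.723, 0.490 and 0.849 CPM in the wild-type libraries. Averaged over the 3 libraries of each group, it reached 11.8 ± 1.11 CPM (SD) in ko, 17.2-fold the wild-type mean of 0.687 ± 0.182 CPM. The spread within each group was small beside this gap, and the 3 separate ko clones had similar levels. The fitted log2 fold change was 4.09 (SE 0.22), with a 95% interval from 3.62 to 4.56. The ratio of the pooled counts, 392 in ko against 28 in wild type, was 17.3 after scaling, with a counting interval from 11.8 to 26.4. Counting intervals cover counting error only.

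Ube2l3, the related E2 enzyme, was expressed at overlapping levels in the groups. It lies on chromosome 16 from 17152015 to 17201512 on the minus strand. Its level was 46.4, 50.8 and 52.7 CPM in the ko libraries and 51.7, 47.6 and 53.9 CPM in the wild-type libraries. The groups overlapped. On the log2 scale the fitted change was -0.03 (SE 0.08), and its 95% interval ran from -0.21 to 0.15. The interval leaves room only for changes far smaller than that of Ube2l6.

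The balance of the E2 pair can be read within each library on a per-length scale, CPM per kb of exon. Ube2l6 was at 69.2%, 75.2% and 63.0% of the Ube2l3 level in ko 1, ko 2 and ko 3. It was at 4.09%, 3.01% and 4.61% of it in p42, p43 and p56. Ube2l6 thus went from a minor transcript beside Ube2l3 to a level still below it. The mean shares were 69.1% ± 6.12 and 3.90% ± 0.813 (SD, n = 3).

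Herc6, the main ISG15 ligase of the mouse, was low in all libraries and went the other way. It lies on chromosome 6 from 57580992 to 57665136 on the plus strand. It had 2, 2 and 2 counts in the ko libraries and 9, 6 and 13 counts in p42, p43 and p56. The groups did not overlap, but the ko counts were all under the limit of 3 counts in a library. Its mean level was 0.181 ± 0.00415 CPM in ko and 0.691 ± 0.294 CPM in wild type (SD, n = 3 in each). The pooled counts were 6 and 28, a ratio of ko to wild type of 0.265 with a counting interval from 0.0898 to 0.653. With no filter on low counts, the fitted log2 fold change was -1.87 (SE 0.62). Herc6 was not called in that fit or by DESeq2.

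Trim25, a ligase for ISG15 and for ubiquitin, was the most expressed of the 7 genes. It lies on chromosome 11 from 88999403 to 89020294 on the plus strand. Its level was 71.4, 73.6 and 76.6 CPM in the ko libraries and 76.1, 70.9 and 57.3 CPM in p42, p43 and p56. The groups overlapped, and the lowest value was that of p56. On the log2 scale the fitted change was 0.12 (SE 0.10), and its 95% interval ran from -0.09 to 0.33. Without p56 it was 0.01, with an interval from -0.13 to 0.15, so that 1 wild-type library set most of it.

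Usp18, the ISG15 protease, had 1 count in p42 and 0 counts in the other libraries. It lies on chromosome 6 from 121245906 to 121270917 on the plus strand. No fold change can be given, since both groups were under the limit. In the RefSeq table the spans of Isg15, Herc6, Usp18 and Trim25 overlap Gm46878, Gm19244, Gm44148 and Gm11496 in turn. None of these Gm genes has a row in the count files under its RefSeq symbol.

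**Figure D1:**
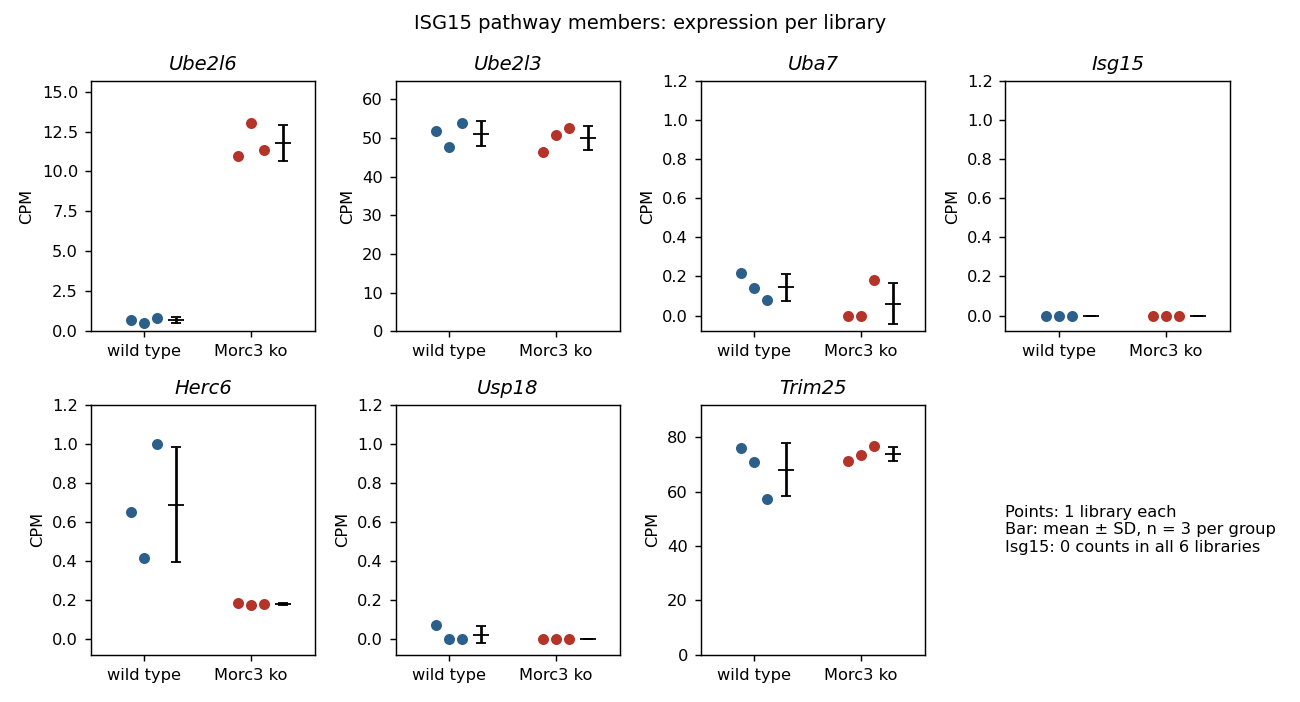
Expression of the 7 pathway genes in CPM (linear axis, its own scale for each gene), with 1 point per library and the mean ± SD (n = 3) beside the points of each group. Ube2l6 is at 11.0 to 13.1 CPM in ko and under 1 CPM in wild type, Ube2l3 and Trim25 overlap between groups, Herc6 is lower in ko at few counts, and Isg15 is at 0 in all libraries.

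Per kb of exon, the order of the 7 genes was Trim25, Ube2l3, Ube2l6, Herc6, Uba7, Usp18 and Isg15 in wild type. Their mean levels were 11.8 ± 1.69, 8.74 ± 0.553, 0.344 ± 0.0913, 0.0744 ± 0.0316, 0.0216 ± 0.0105, 0.00864 ± 0.0150 and 0 CPM per kb (SD, n = 3). Neighbours in this order did not overlap down to Uba7, while Uba7, Usp18 and Isg15 were at or near the limit of counting. In ko the order began in the same way, with Trim25 at 12.8 ± 0.458, Ube2l3 at 8.55 ± 0.548 and Ube2l6 at 5.91 ± 0.555 CPM per kb. These 3 did not overlap with each other. Herc6 and Uba7 overlapped in ko, at 0.0195 and 0.00903 CPM per kb. In both groups the E1 enzyme, the modifier and the protease were thus far below the E2 enzyme, and in ko so was the main ligase.

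The E2 enzymes carry ubiquitin and the ubiquitin-like proteins, and Ube2l6 was placed among 37 others and Ube2l3. In wild type Ube2l6 ranked 36th of 39 by level per kb. The next gene above it, Ube2j2, was at 0.492 to 0.698 CPM per kb in wild type, and Ube2l6 at 0.245 to 0.425 CPM per kb, so the neighbours did not overlap. In ko Ube2l6 ranked 26th of 39. It lay between Ube2w, at 6.61 to 7.50 CPM per kb, and Ube2e1, at 4.89 to 5.88 CPM per kb. The ko range of Ube2l6 was 5.50 to 6.54 CPM per kb, which overlapped that of Ube2e1 and not that of Ube2w. Ube2l3 ranked 22nd in both groups. Cdc34, an E2 enzyme of the cell cycle, was highest in both, at 119 and 114 CPM per kb in ko and wild type.

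**Figure D2:**
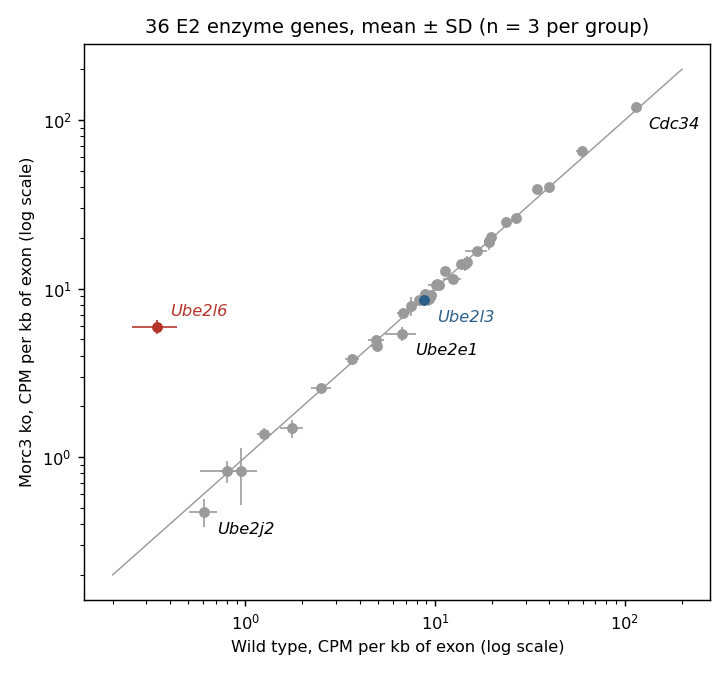
Levels of the E2 enzyme genes with counts in both groups, in CPM per kb of exon on log axes, wild type on the x axis and ko on the y axis, as mean ± SD (n = 3 per group), with a line of equal levels. Ube2l6 stands far above the line at 5.91 in ko against 0.344 in wild type, Ube2l3 lies on it, and the other tested E2 genes have log2 fold changes from -0.36 to 0.18.

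Of the 37 other E2 genes, 34 were tested and 0 were called by edgeR (3 at an unadjusted p under 0.05, 0 by DESeq2), with a median log2 fold change of 0.02. The largest was Ube2j2, an E2 enzyme of the endoplasmic reticulum, at -0.36 (SE 0.25, adjusted p = 0.577). The 9 E1 genes were all tested and 0 were called by edgeR (0 at an unadjusted p under 0.05, 0 by DESeq2), with a median of 0.04. The largest was Uba3, a subunit of the E1 enzyme of NEDD8, at 0.13 (SE 0.06, adjusted p = 0.366). The difference between these genes and Ube2l6, which was chosen on this contrast, was not tested.

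The list of other enzymes and partners of ISG15 holds 12 genes, among them Usp21, another protease reported to act on ISG15, and Eif2ak2, a target of ISG15. All 12 were tested and 0 were called by edgeR (1 at an unadjusted p under 0.05, 0 by DESeq2), with log2 fold changes from -0.31 to 0.10. The largest was Ube2e1 at -0.31 (SE 0.13, adjusted p = 0.290), and it was -0.15 without p56. The 4 HERC ligases besides Herc6 gave 0 calls by edgeR (1 at an unadjusted p under 0.05, 0 by DESeq2). The largest of them was Herc3 at -0.18 (SE 0.11, adjusted p = 0.549), so none had a ratio like that of Herc6. Of 14 genes of ubiquitin and ubiquitin-like modifiers besides Isg15, 13 were tested and 0 were called by edgeR (1 at an unadjusted p under 0.05, 0 by DESeq2). The largest was Nedd8 at -0.23 (SE 0.11, adjusted p = 0.380), which was -0.11 without p56. The untested modifier was Ubd, the other interferon-induced modifier of this kind, with 0 counts in all libraries like Isg15.

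These 5 lists together hold 73 genes, of which 69 were tested and 0 were called by edgeR, by DESeq2 or by limma-voom (5 at an unadjusted p under 0.05 by edgeR). Their log2 fold changes ran from -0.36 to 0.19 with a median of 0.02, beside a median of -0.00010 over all tested genes. For 9 of them, or 13.0%, the libraries of the groups did not overlap, against 19.9% of all tested genes.

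The interferon pathway, which induces ISG15, was given by a list of 10 receptor, kinase and transcription factor genes. Of these, 9 were tested and 0 were called by edgeR (2 at an unadjusted p under 0.05, 0 by DESeq2). The largest was Jak1, a kinase of the receptor, at -0.34 (SE 0.08, adjusted p = 0.0435), and it was called without p56 (adjusted p = 0.00874). Irf7, a transcription factor that is itself interferon-induced, had 0 counts in ko and 2 in wild type.

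Of 15 other interferon-stimulated genes, 7 were tested, 1 was called higher and 1 lower, with a median log2 fold change of -0.47, and 6 of the 7 were negative. Of these 6, only Oas1a had an interval that excluded 0, and Bst2 and Ifit2 were at -0.03 and -0.08. The sign count therefore does not show a general fall of the list. The summed level of the 15 genes was higher in ko, at 94.1 to 100.5 CPM against 72.8 to 84.7 CPM in wild type, and Ifitm3 was the largest part of it. Xaf1, named after its values were seen, was at -0.64 with 19.6 CPM in p56 and 6.92 to 7.58 CPM in the other libraries. Without p56 it was at -0.01, and the median of the 7 was -0.33 with 6 still negative. Ifitm3, a membrane protein that hinders virus entry, rose by 0.83 (SE 0.09, adjusted p = 4.1e-04), from 35.8 ± 4.56 to 63.5 ± 2.24 CPM. Oas1a, a sensor of double-stranded RNA, fell by 1.06 (SE 0.16, adjusted p = 0.00324), from 8.23 ± 0.878 to 3.94 ± 0.298 CPM. The call of Oas1a was lost without ko 1, ko 2, ko 3 or p43. Mx1, Mx2 and Ifi44 had 0 counts in all libraries, as Isg15 did. Ube2l6 was thus higher in ko cells in which Isg15, Usp18 and Irf7 were at 0 counts.

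**Figure D3:**
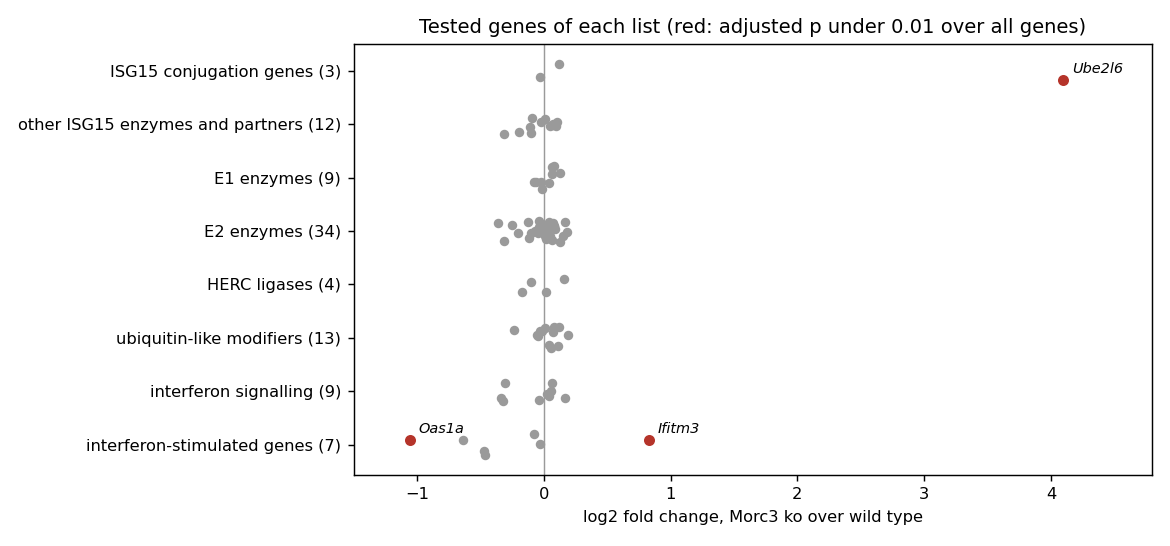
log2 fold change of ko over wild type for the tested genes of each list, 1 point per gene, with the number tested in brackets and genes at an adjusted p under 0.01 in red (points are spread vertically for sight only). Ube2l6 stands alone at 4.09, Ifitm3 and Oas1a are the other red points at 0.83 and -1.06, and the 69 genes of the ubiquitin and ubiquitin-like lists lie between -0.36 and 0.19.

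The study itself reports Ube2l6 as a gene that is higher in Morc3 ko cells and lower again after rescue with Morc3. It describes binding of Morc3 in an LTRIS2 endogenous retrovirus element that overlaps the untranslated end of Ube2l6. The genes next to Ube2l6 on chromosome 2 were examined because of this binding. Within 250 kb of Ube2l6, 24 other genes are annotated, 20 had a row and 13 were tested. By edgeR 0 of the 13 were called (3 at an unadjusted p under 0.05, 0 by DESeq2 and 0 by limma-voom), with log2 fold changes from -0.42 to 0.46 and a median of 0.09. The smallest adjusted p by edgeR was that of Ctnnd1, 140 kb away and named after its values were seen. It was at 0.33 (SE 0.08, adjusted p = 0.0589), with 106 ± 5.32 CPM in ko and 84.2 ± 8.56 CPM in wild type, and its groups did not overlap.

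Within 100 kb, 5 genes were tested and all had values above 0, with a median of 0.19. Timm10, a chaperone of mitochondrial import 17.0 kb away, was at 0.34 (SE 0.09, adjusted p = 0.0732), with 46.2 ± 2.88 CPM in ko and 36.4 ± 3.39 CPM in wild type. Its groups did not overlap, and it was called without p56, at 0.42 (adjusted p = 0.00282). Serping1, the C1 inhibitor, 23.4 kb away on the other side, was at 0.46 (SE 0.24, adjusted p = 0.440). Clp1, an RNA kinase, was at 0.19 (SE 0.08, adjusted p = 0.315). Zdhhc5, a palmitoyltransferase, and Slc43a1, an amino acid transporter, were both at 0.04 (adjusted p = 0.875 and 0.959).

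Smtnl1, a smoothelin-like muscle gene, is the nearest neighbour with a row and was named after its values were seen. It lies on the minus strand, and its span (84811173 to 84826847) begins 1.17 kb past the end of Ube2l6. It did not pass the filter on low counts. It had 12, 22 and 7 counts in ko 1, ko 2 and ko 3, and 1, 3 and 4 counts in p42, p43 and p56. The groups did not overlap, and the ratio of pooled counts was 6.34 with a counting interval from 2.93 to 15.7. With no filter, its log2 fold change was 2.59 (SE 0.57), and it was called by edgeR (adjusted p = 0.00860) and not by DESeq2 (adjusted p = 0.0351). The difference of Ube2l6 was the larger, at 4.09, but the difference between the neighbours was not tested.

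**Figure D4:**
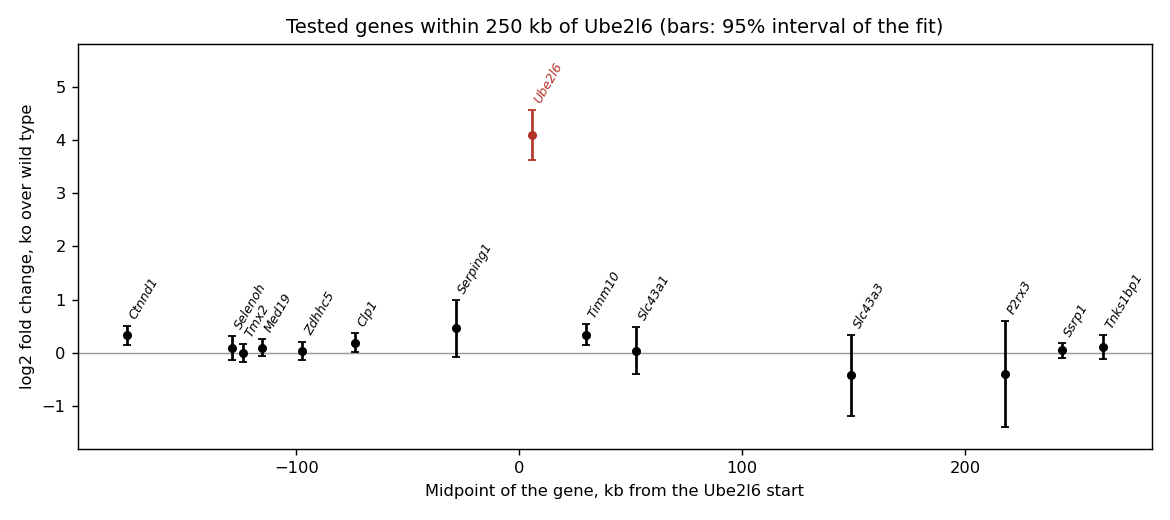
log2 fold change of ko over wild type with its 95% interval for the tested genes within 250 kb of Ube2l6, placed by the distance of the gene's midpoint from the Ube2l6 start in kb. Ube2l6, in red, is at 4.09, and the other 13 lie between -0.42 and 0.46.

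The 5 tested genes with the profile most like that of Ube2l6 over the 6 libraries were Irak3, LOC666331, Abca1, Slc23a1 and 4930519F16Rik. Likeness was the root mean square difference between the centred log2 CPM profiles, and it was 0.25, 0.28, 0.29, 0.33 and 0.42. Irak3, which restrains Toll-like receptor signalling, had 19.0 ± 1.76 CPM in ko and 0.887 ± 0.351 CPM in wild type. Abca1, which exports cholesterol, had 76.8 ± 2.05 and 7.01 ± 3.15 CPM, and Slc23a1, a vitamin C transporter, had 7.87 ± 1.27 and 0.534 ± 0.0621 CPM. These genes lie on chromosomes 10, 11, 4, 18 and X, so none is a neighbour of Ube2l6. The RefSeq span of Slc23a1 overlaps that of Paip2, and that of 4930519F16Rik overlaps that of Nap1l2. They were chosen by likeness to Ube2l6 and so had to differ between the groups.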

How the data were processed

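RNA-seq was performed by the authors on total RNA of 3 Morc3 ko clones and 3 wild-type cultures after DNase treatment and removal of ribosomal RNA, with a strand-specific kit and paired-end reads of 50 bp. Reads were aligned to mm10 with STAR, per the labels and methods, and the deposited files hold raw counts per gene on each strand, with no normalization. Which gene annotation was used is not given in the sources used here. STAR counts a read pair only when it maps to 1 place and overlaps 1 gene.

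Sense counts were tested here with edgeR 4.0.16 (quasi-likelihood test, TMM scaling, filterByExpr with a minimum count of 10, group as the only term, two-sided) in R 4.3.3, with Benjamini-Hochberg adjustment over 12222 genes and calls at an adjusted p under 0.01, the threshold of the study. The step was tried on simulated counts with the same spread for every gene. That is simpler than these clones and cultures, so it does not give the error rate in these data. A prior count of 0.125 went into the log2 fold changes (ko over wild type) and one of 2 into the likeness profiles. DESeq2 1.42.0, limma-voom (limma 3.58.1), other scalings, robust dispersion, no filter, counts that ignore strand and the omission of each library were tried. Counting intervals are exact 95% intervals. Positions came from RefSeq for GRCm38, the assembly of mm10, with 22542 of 24054 rows matched by current symbol. Exon lengths came from GENCODE, with the exons of all transcripts of a gene merged, and may differ from those used for the counts. The p-values measure the spread between these clones and cultures only.

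The pathway genes and lists were chosen with earlier results of these data known. Besides them the text names Morc3, tested genes within 100 kb of Ube2l6, the called genes and the gene of largest change in each list of the ubiquitin-like and interferon pathways (not the cell type markers), and the 5 profiles most like Ube2l6. Other names were chosen after their values were seen or give members of a list.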

Additional observations from a re-analysis of the deposited data

Results flagged for a closer look

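Ube2l6 had counts on the strand opposite to the gene, a column that the main comparison does not use. There were 4, 11 and 2 such counts in ko 1, ko 2 and ko 3, 17 in all, and 0, 0 and 1 in p42, p43 and p56. As a share of the counts of both strands this was 4.16% (exact 95% interval 2.44% to 6.57%) in ko and 3.45% (0.0873% to 17.8%) in wild type, so the shares overlapped. Over all genes the share was 1.21% to 1.27% per library, and the median over the 500 most counted genes was 0.0913%. The gene on the opposite strand next to Ube2l6 is Smtnl1, whose counts were 41 in ko and 8 in wild type. Its part in the opposite-strand counts was not tested.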

How the results depend on the processing

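Over 14 alternatives the log2 fold change of Ube2l6 ran from 3.89 to 4.26, that of Ube2l3 from -0.08 to 0.02 and that of Trim25 from 0.01 to 0.21. The number of genes called, 156, was 254 with DESeq2, 286 with no filter on low counts and 331 at an adjusted p under 0.05, and 72 to 385 when 1 library was left out, with the 72 without ko 3 and the 385 without p56. All 156 were among the 286 and among the 385, and 154 were among the 254. The list genes called, 2, were 1 to 3 when 1 library was left out. The neighbours of Ube2l6 called, 0, were 1 with no filter (Smtnl1) and 0 to 2 when 1 library was left out (Smtnl1 and Timm10 without p56). The causes were not tested. No paired analysis was possible because the groups share no replicate numbers. Isg15, Uba7, Herc6 and Usp18 are limited by depth, since 3 counts are 0.210 to 0.277 CPM in a library.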
